A study of Mus musculus with 6 samples.

Results

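The genes described here make the sugar coat of the endothelial surface, the glycocalyx, and the activated sugars from which it is built. They are 36 listed symbols out of 23329 in the count files: 5 enzymes of UDP-GlcNAc synthesis, 7 enzymes that use UDP-GlcNAc or salvage amino sugars, 2 enzymes of UDP-glucose and UDP-glucuronate, 3 hyaluronan synthases, 8 heparan sulfate chain and sulfation enzymes, 3 enzymes that edit finished heparan sulfate, 4 syndecans and 4 glypicans. All 36 were found, and 35 passed the filter on low counts. The rule is a list of symbols by role and holds no measured value.

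RNA was sequenced from brain endothelial cells of C57BL/6 mice aged 8 weeks, collected by magnetic bead sorting (MACS) into lysis buffer with no culture step. A group of 3 libraries came from mice labelled GLUT1EC-/-, a name for loss of the glucose carrier GLUT1 (gene Slc2a1) from endothelial cells, and a group of 3 from wild-type (WT) littermates. The first are called knockout-labelled libraries and numbered GLUT1EC-/- 1 to 3. The promoter that drives the deletion, its timing, the deleted exons and the sex of the animals are not given in the sources used here. The comparison asks how the endothelial transcriptome differs between these genotypes, and here whether glucose-derived sugar synthesis and the glycocalyx genes differ.

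The hexosamine pathway is a side branch of glycolysis. It turns fructose 6-phosphate into UDP-GlcNAc, the donor for protein O-GlcNAc, N-glycans, hyaluronan and heparan sulfate. Heparan sulfate chains are carried on core proteins, among them the transmembrane syndecans and the lipid-anchored glypicans, and with hyaluronan they form the layer between blood and the endothelial cell that binds growth factors and plasma proteins.

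Library totals ran from 31874662 to 39424384 counts, and levels are given as CPM, counts relative to the library total scaled with TMM factors. Slc2a1, the targeted gene, did not separate the groups, at 3984, 4479 and 4172 CPM in WT 1 to 3 and 3735, 5414 and 3893 CPM in knockout-labelled libraries 1 to 3 (log2 fold change 0.05, edgeR adjusted p = 0.921; -0.15 without GLUT1EC-/- 2), so each direction below is between libraries as labelled. GLUT1EC-/- 2 stood apart, with a TMM factor of 0.884, where the rest had 1.01 to 1.05, and a mean correlation of 0.972 to its own group over genes, where the rest had 0.979 to 0.994. The summed level of 12 endothelial markers was 18920 to 19770 CPM in WT and 18180 to 21460 CPM in the knockout-labelled libraries, and the next highest list, of choroid plexus markers, at 4046 to 8454 CPM, had no gene called. In a bulk sample, fewer cells of a type and less RNA per cell cannot be told apart.

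No member passed the test. Of the 35 tested, 0 were called at an edgeR quasi-likelihood adjusted p under 0.05 over all genes, where 194 of 14838 genes (1.31%) were called, 0.863% higher and 0.445% lower. The limma-voom alternative also called 0. At an unadjusted p under 0.05 there were 7 members, against 2148 genes (14.5%). The largest differences by value were in the core proteins and the enzymes that edit heparan sulfate. Syndecan 1 and the sulfatase gene Sulf2 were at 2.88-fold and 2.07-fold of WT, while the heparanase gene Hpse and the hyaluronan synthase gene Has3 were at 0.480-fold and 0.493-fold. The median log2 fold change of the 35 was 0.06, beside 0.01 over all genes tested, with 20 above and 15 below 0. Their median absolute log2 fold change was 0.26, beside 0.22 over all genes. For 28 of the 35 the 95% interval lay within a 2-fold change either way, and for 13 within a 1.5-fold change.

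In 10 of the 35 tested members (28.6%) the 3 libraries of one group all lay above the 3 of the other, with 8 higher and 2 lower in knockout-labelled ones. Over all genes tested the share was 22.9%, with 11.7% higher and 11.2% lower. With 1 library left out, the count was 15 of 35 (42.9%) without WT 1, WT 3, GLUT1EC-/- 2 or GLUT1EC-/- 3, beside 27.3%, 35.4%, 37.4% and 39.1% of all genes. It was 13 without GLUT1EC-/- 1 and 10 without WT 2, beside 29.3% and 30.0% of all genes. The count of calls differed by library left out and by tool. Without GLUT1EC-/- 2, 4 members passed (edgeR; 5.73% of all genes), Sdc1, Sdc3, Sulf2 and Sulf1, all higher. Without GLUT1EC-/- 3, Sdc1 alone passed (edgeR; 1.88% of all genes). DESeq2 on all libraries called Sdc1, Sdc3 and Sulf2 (5.92% of all genes).

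**Figure D1:**
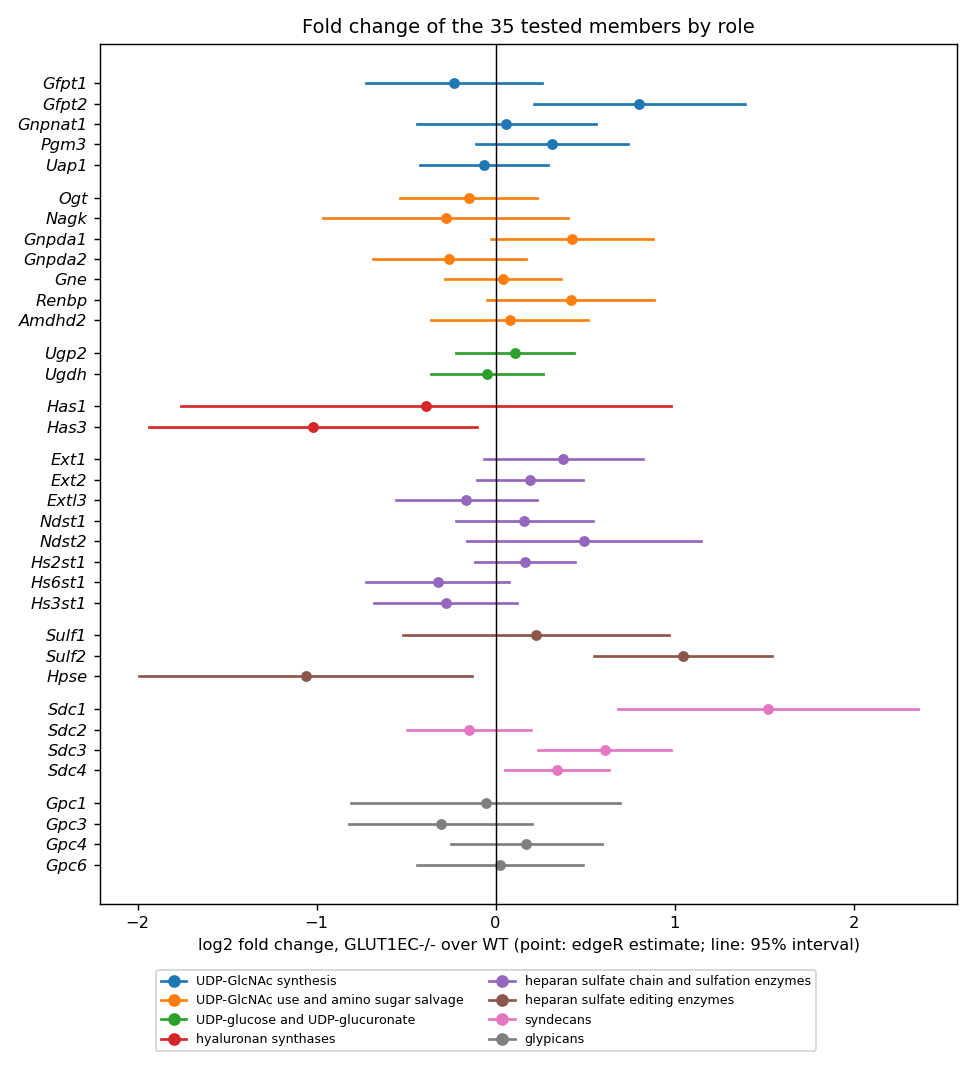
Log2 fold change of each of the 35 tested members (x axis), one row a gene, coloured by role; points are edgeR estimates and lines their 95% intervals. The intervals of Gfpt2, Sulf2, Sdc1, Sdc3 and Sdc4 lie above 0 and those of Has3 and Hpse below it, before any adjustment for the number of genes tested.

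UDP-GlcNAc is made in steps by Gfpt1 or Gfpt2, the rate-limiting aminotransferases, then Gnpnat1, which acetylates glucosamine 6-phosphate, Pgm3, which moves the phosphate, and Uap1, which joins the sugar to UDP. None of these 5 genes passed the test, and 3 lay above and 2 below 0. The paralogues that start the pathway differed in direction by value. Gfpt1 was at 45.3, 44.0 and 37.4 CPM in WT, against 44.3, 24.8 and 38.7 CPM in the knockout-labelled libraries. Its groups overlapped, with GLUT1EC-/- 2 below the other 5 libraries (log2 fold change -0.23, SE 0.21, edgeR adjusted p = 0.658). Gfpt2 was at 3.06, 4.35 and 4.24 CPM in WT, against 6.81, 8.34 and 5.22 CPM in the knockout-labelled libraries. Every knockout-labelled library lay above every WT library, with an estimate of 0.80 on the log2 scale (SE 0.26, edgeR adjusted p = 0.2004). Within the animal number series of the labels it was 0.89 in the 200s (2 WT and 1 GLUT1EC-/-) and 0.63 in the 500s (1 WT and 2 GLUT1EC-/-).

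Promoter windows show how the paralogue pair differs in sequence upstream of the start. RefSeq windows of GRCm38.p6 were found for 25 of the 36 members, 29 windows in all, and the 250 bases before each start are used here. Capitals mark 2 short motifs, each also searched as its reverse complement, the GC box GGGCGG, which Sp factors bind, and the core of a TATA box, with the letters TATAA. Matches may overlap each other.
Gfpt1, chr6:87042596-87042845, plus strand: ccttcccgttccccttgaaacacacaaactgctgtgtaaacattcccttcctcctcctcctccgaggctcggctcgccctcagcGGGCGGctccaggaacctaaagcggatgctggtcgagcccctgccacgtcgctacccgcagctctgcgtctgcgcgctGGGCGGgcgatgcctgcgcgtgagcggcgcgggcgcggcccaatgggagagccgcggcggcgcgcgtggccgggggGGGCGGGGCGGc
Gfpt2, chr11:49793905-49794154, plus strand: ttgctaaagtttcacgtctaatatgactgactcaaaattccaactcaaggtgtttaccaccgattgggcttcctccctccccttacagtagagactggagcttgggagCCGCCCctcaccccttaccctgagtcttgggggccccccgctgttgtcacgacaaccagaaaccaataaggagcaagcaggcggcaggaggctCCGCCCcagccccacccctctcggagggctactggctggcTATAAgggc
The Gfpt1 window held 4 GC boxes and no TATA core, with a GC content of 72.0%. The Gfpt2 window held 2 GC boxes and, starting 9 bases before the RefSeq start, 1 TATA core, with a GC content of 57.6%. The GENCODE M21 start of Gfpt2, at 49794178, lies downstream of the RefSeq one. Over the members, 22 of 29 windows (75.9%) held a GC box, beside 32.7% of 32851 windows of that length in the whole table. TATAA was found in 7 of 29 (24.1%), beside 22.8%. The pentamer CCAAT was in 12 of 29 (41.4%), beside 33.8%. The E box CACGTG, the kind of box found in the element that the glucose sensors MondoA and ChREBP bind, was in 2 of 29 (6.9%), beside 6.02%, those of Ext2 and Amdhd2. These are matches of letters with no allowance for base composition, and not sites of binding.

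On a per-length scale, CPM per kilobase of annotated exon, Uap1 was by far the most abundant gene of the pathway. It stood at 33.0 ± 4.4 in WT and 31.5 ± 4.1 in the knockout-labelled libraries (SD, n = 3 each), or 81.3% of the summed level of the 5 genes in WT and 79.9% in the other group. Gfpt1 followed at 4.19 ± 0.42 and 3.57 ± 0.999, then Pgm3 at 1.62 ± 0.02 and 2.01 ± 0.30. In WT, Gnpnat1 (1.01 ± 0.12) lay above Gfpt2 (0.695 ± 0.128) in every library. In the knockout-labelled libraries the order of these genes was turned, with Gfpt2 at 1.22 ± 0.28 and Gnpnat1 at 1.05 ± 0.13, and their ranges overlapped. The share of Gfpt2 in the summed level was 1.34% to 2.13% in WT and 2.67% to 3.51% in the knockout-labelled libraries.

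Uap1 was at 132.6, 149.8 and 114.3 CPM in WT, against 127.1, 142.7 and 109.6 CPM in the knockout-labelled libraries (log2 fold change -0.06, 95% interval -0.42 to 0.29), so the groups covered nearly the same range. Pgm3 was at 7.18, 7.33 and 7.24 CPM in WT, against 10.4, 8.96 and 7.74 CPM in the other group. Its WT libraries differed little among themselves and all lay below the others (log2 fold change 0.32, SE 0.18, edgeR adjusted p = 0.482). Gnpnat1 ranged from 4.26 to 5.42 CPM over the 6 libraries (log2 fold change 0.06). Of its 4735 bases of annotated exon, 3878 are shared with Styx on the opposite strand, so with no strand setting stated its count is uncertain. The summed per-length level of the 5 genes was 35.5 to 45.1 in WT and 34.97 to 42.4 in the knockout-labelled libraries.

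The enzymes that spend or recycle UDP-GlcNAc had no call among 7, and 4 lay above and 3 below 0. Ogt, which attaches O-GlcNAc to nuclear and cytosolic proteins, was the most abundant of them per length, at 11.2 ± 1.6 in WT and 10.1 ± 1.6 in the knockout-labelled libraries. Its counts were 103.7, 88.5 and 78.7 CPM in WT, against 89.8, 66.5 and 87.8 CPM in the other group (log2 fold change -0.15, SE 0.17). These ranges overlapped. Gne, the enzyme that turns UDP-GlcNAc toward sialic acid, was at 43.2, 44.7 and 49.1 CPM against 40.2, 52.2 and 48.5 CPM (log2 fold change 0.04, 95% interval -0.28 to 0.36). No difference beyond the spread was seen in it.

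Among the salvage enzymes, Gnpda1, a deaminase that returns glucosamine 6-phosphate to glycolysis, was higher in every knockout-labelled library. It was at 5.91, 6.31 and 4.80 CPM in WT, against 7.88, 6.99 and 7.96 CPM in the other group (log2 fold change 0.42, SE 0.20, edgeR adjusted p = 0.381). Its paralogue Gnpda2, at 25.1, 26.4 and 24.7 CPM in WT, against 24.8, 15.7 and 23.2 CPM, overlapped between groups (log2 fold change -0.26, SE 0.19). Renbp, which interconverts GlcNAc and ManNAc and takes its name from renin binding, was at 9.10, 10.5 and 13.8 CPM and at 14.6, 16.97 and 13.1 CPM (log2 fold change 0.42, edgeR adjusted p = 0.403). WT 3 reached into the range of the other group. Nagk, the GlcNAc kinase, and Amdhd2, a deacetylase of GlcNAc 6-phosphate, had log2 fold changes of -0.28 and 0.08. Nagk was at 7.23 CPM in GLUT1EC-/- 2 and at 14.0 to 18.0 CPM in the other libraries.

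UDP-glucose, made by Ugp2, is oxidised by Ugdh to UDP-glucuronate, the other sugar of hyaluronan and heparan sulfate. Ugp2 was at 40.6, 39.3 and 40.2 CPM in WT, against 48.9, 35.9 and 44.8 CPM in the knockout-labelled libraries. Ugdh was at 34.7, 37.5 and 34.6 CPM and at 39.3, 31.9 and 32.2 CPM. Both overlapped between the groups, with log2 fold changes of 0.11 and -0.05, and 95% intervals of 0.857-fold to 1.36-fold and 0.780-fold to 1.20-fold.

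**Figure D2:**
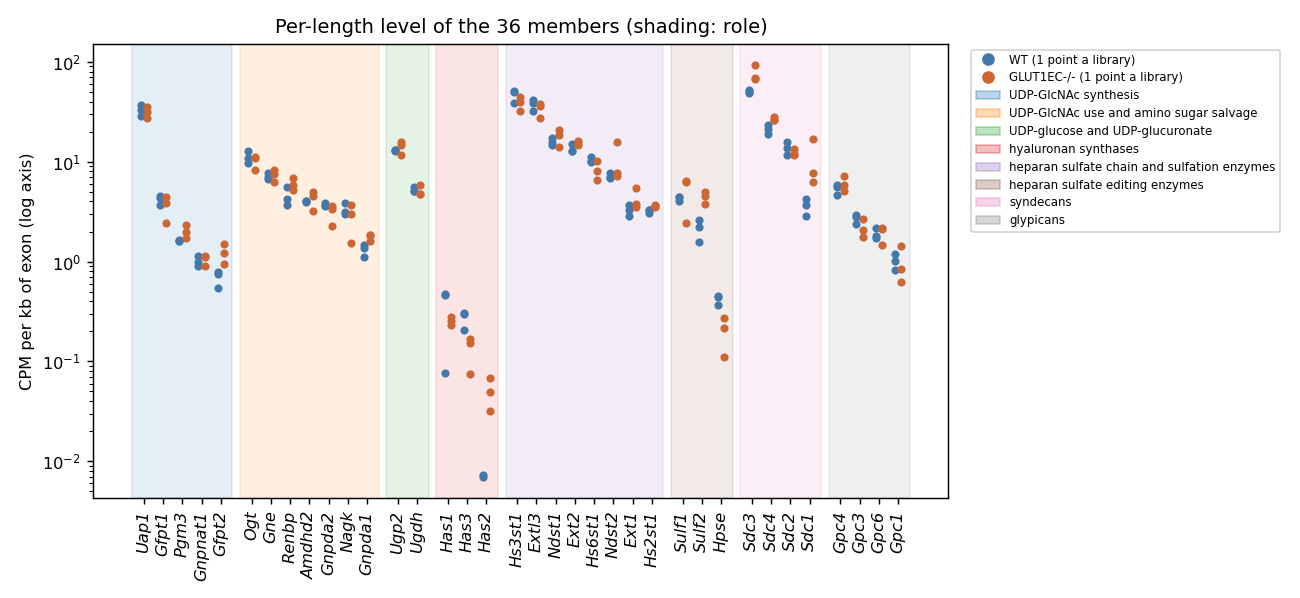
Per-length level of the 36 members (y axis, CPM per kilobase of exon, log scale), one point a library, WT and GLUT1EC-/- side by side and roles shaded. Sdc3, Hs3st1, Extl3 and Uap1 were the most abundant, the hyaluronan synthases the least; the WT 3 library of Has2, at 0, is not drawn.

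The hyaluronan synthases, which extrude hyaluronan through the plasma membrane, were at the bottom of the scale. Summed, they came to 0.281 to 0.781 per kilobase in WT and 0.402 to 0.490 in the knockout-labelled libraries, and Has1 and Has3 stood at the 10.6th and 7.27th percentile of tested genes by per-length level. Has3 was at 1.92, 1.93 and 1.31 CPM in WT, against 1.07, 0.478 and 0.9747 CPM in the other group. The groups did not overlap (log2 fold change -1.02, SE 0.40, edgeR adjusted p = 0.291), with -0.81 in the 200s and -0.88 in the 500s. The exons of Has3 overlap those of Chtf8 on the opposite strand over 704 bases. Has1 was at 2.07, 2.13 and 0.345 CPM in WT, against 1.15, 1.26 and 1.06 CPM in the knockout-labelled libraries. Its WT libraries spanned both sides of the other group (log2 fold change -0.39, SE 0.60), and the within-series values were opposite, -0.84 in the 200s and 1.59 in the 500s.

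Has2, the synthase known from development and from activated stroma, was the one member left out by the filter. It had 1, 1 and 0 counts in WT 1 to 3 and 11, 7 and 5 counts in GLUT1EC-/- 1 to 3. All WT libraries were under a floor of 3 counts, so no fold is given. Fitted without the filter, it did not pass (edgeR adjusted p = 0.182; 1.33% of all genes were called in that fit).

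Heparan sulfate is polymerised by the Ext1 and Ext2 complex on a primer that Extl3 starts, then N-sulfated by Ndst1 and Ndst2 and O-sulfated by Hs2st1, Hs6st1 and Hs3st1. None of these 8 passed, 5 lay above and 3 below 0, and log2 fold changes ran from -0.32 to 0.49. Per length, Hs3st1, whose product forms the antithrombin-binding site, was the most abundant at 46.8 ± 7.2 in WT and 38.6 ± 6.3 in the knockout-labelled libraries. Extl3 followed at 37.7 ± 4.9 and 33.6 ± 5.7, and the ranges of Hs3st1 and Extl3 overlapped in both groups. Ndst1 was at 15.9 ± 1.4 and 17.7 ± 3.4, and Ext2 at 13.5 ± 1.4 and 15.4 ± 0.7. Ext1 (3.27 ± 0.39 in WT) and Hs2st1 (3.22 ± 0.15 in WT) were the lowest and did not separate from each other. The summed per-length level of the 8 genes was 133.2 to 144.0 in WT and 124.1 to 138.2 in the other group.

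The polymerase genes were higher by value and the genes of 6-O- and 3-O-sulfation lower. Ext1 was at 29.5, 26.4 and 23.3 CPM in WT, against 30.7, 43.9 and 28.4 CPM in the knockout-labelled libraries (log2 fold change 0.38, edgeR adjusted p = 0.43), with GLUT1EC-/- 2 the highest. Ext2 was at 93.3, 92.9 and 110.8 CPM against 107.5, 117.8 and 114.2 CPM (log2 fold change 0.19). WT 3 lay inside the range of the other group in Ext2, and WT 1 in Ext1. Extl3, the chain-starting enzyme, was at 253.8, 236.4 and 195.4 CPM against 217.7, 164.5 and 229.5 CPM (log2 fold change -0.16).

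Hs6st1 was at 54.7, 62.4 and 56.2 CPM in WT, against 45.0, 56.8 and 36.6 CPM in the knockout-labelled libraries (log2 fold change -0.32, SE 0.17, edgeR adjusted p = 0.449). Hs3st1 was at 85.9, 111.9 and 115.1 CPM and at 71.2, 87.5 and 99.2 CPM (log2 fold change -0.28, edgeR adjusted p = 0.507). In both genes the groups overlapped. Without GLUT1EC-/- 2, Hs6st1 was at -0.51 and missed the threshold (edgeR adjusted p = 0.0504). Hs2st1, the 2-O-sulfotransferase, showed a small separation, at 25.0, 27.0 and 27.3 CPM against 30.1, 29.8 and 28.8 CPM. Its log2 fold change was 0.16 (95% interval -0.12 to 0.44, edgeR adjusted p = 0.585).

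Of the N-sulfation genes, Ndst2 was high in 1 library, GLUT1EC-/- 2. It was at 35.2, 32.1 and 31.3 CPM in WT, against 34.7, 71.3 and 33.0 CPM in the knockout-labelled libraries. With all libraries it stood at 0.49 on the log2 scale (SE 0.28, edgeR adjusted p = 0.477), and at 0.04 without GLUT1EC-/- 2. Ndst1 was at 130.4, 142.9 and 120.6 CPM against 152.2, 171.5 and 116.7 CPM (log2 fold change 0.16).

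Finished chains are edited outside the cell by Sulf1 and Sulf2, which remove 6-O-sulfates, and by heparanase, Hpse, which cuts the chain. Sulf2 had the smallest adjusted p of the members. It was at 9.22, 15.4 and 13.1 CPM in WT, against 22.1, 29.4 and 26.6 CPM in the knockout-labelled libraries. All 3 lay above all WT libraries, a log2 fold change of 1.05 (SE 0.22, 95% interval 0.55 to 1.54, edgeR adjusted p = 0.0649), with 0.88 in the 200s and 1.09 in the 500s. It passed without GLUT1EC-/- 2 (log2 fold change 0.94, edgeR adjusted p = 0.0276) and with DESeq2 (adjusted p = 0.000822). In the other alternatives it did not pass, and the adjusted p (edgeR or limma-voom) reached 0.277. Its exons share 154 bases with Ncoa3 on the opposite strand.

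Sulf1 was at 45.9, 49.96 and 49.8 CPM in WT, against 72.7, 27.2 and 70.5 CPM in the knockout-labelled libraries. GLUT1EC-/- 1 and 3 lay above the WT range and GLUT1EC-/- 2 below it, with an estimate of 0.23 on the log2 scale (edgeR adjusted p = 0.776). Without GLUT1EC-/- 2 it was 0.55 and passed (edgeR adjusted p = 0.0121). Per length, Sulf1 stood above Sulf2 in WT, at 4.30 ± 0.21 and 2.15 ± 0.53, with ranges apart. In the knockout-labelled libraries they were at 5.03 ± 2.27 and 4.43 ± 0.63 and overlapped.

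Hpse was at 1.55, 1.28 and 1.60 CPM in WT, against 0.966, 0.388 and 0.758 CPM in the knockout-labelled libraries. The groups did not overlap (log2 fold change -1.06, SE 0.41, edgeR adjusted p = 0.278). The within-series values were -0.52 and -1.46. The level rested on 44 to 65 counts a library in WT and 13 to 37 in the other group. By share of the summed per-length level of these 3 genes, Hpse took 6.20% ± 1.17 in WT and 2.02% ± 0.58 in the knockout-labelled libraries (SD, n = 3 each).

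Syndecans were the role group with most members apart, 3 of 4, all higher in the knockout-labelled libraries and none past the adjusted threshold. Over all genes tested, 22.9% had groups apart, 11.7% higher and 11.2% lower. The role groups are small and were ranked with their values seen, so this count is no test of the syndecans. Sdc1, the syndecan best known from epithelia and plasma cells, lies on chromosome 12 (GRCm38, 8771323 to 8793715, plus strand). It was at 10.9, 16.3 and 14.0 CPM in WT, against 29.7, 65.0 and 23.9 CPM in the knockout-labelled libraries. GLUT1EC-/- 2 was the highest, and the other 2 also lay above every WT library. This was a log2 fold change of 1.52 (SE 0.37, 95% interval 0.69 to 2.36, edgeR adjusted p = 0.1003), with 1.16 in the 200s and 1.48 in the 500s. Without GLUT1EC-/- 2 it was 0.96 and passed (edgeR adjusted p = 0.0153), and without GLUT1EC-/- 3 it was 1.78 and passed (edgeR adjusted p = 0.0355). DESeq2 gave an adjusted p of 0.00155. In the other alternatives Sdc1 did not pass, and the adjusted p (edgeR or limma-voom) reached 0.438.

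Sdc3, the large syndecan first known from the nervous system, lies on chromosome 4 (130792537 to 130826319, plus strand). It was at 294.3, 296.5 and 312.7 CPM in WT, against 400.6, 562.9 and 414.5 CPM in the knockout-labelled libraries. The WT libraries lay close together and below all others, and the estimate was 0.61 on the log2 scale (SE 0.16, edgeR adjusted p = 0.135), with 0.44 and 0.63 within the series. Without GLUT1EC-/- 2 it was 0.43 and passed (edgeR adjusted p = 0.0458), and DESeq2 gave an adjusted p of 0.0203. In the other alternatives Sdc3 did not pass, and the adjusted p (edgeR or limma-voom) reached 0.5.

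Sdc4, a focal adhesion syndecan that acts with integrins, lies on chromosome 2 (164424247 to 164443887, minus strand). It was at 48.6, 59.3 and 54.0 CPM in WT, against 67.4, 71.2 and 66.6 CPM in the knockout-labelled libraries. The groups did not overlap (log2 fold change 0.34, SE 0.13, edgeR adjusted p = 0.263). Sdc2, the remaining syndecan, was at 41.0, 56.2 and 48.7 CPM in WT, against 42.5, 41.6 and 47.5 CPM in the other group. Its groups overlapped, with a log2 fold change of -0.15 (SE 0.15, 95% interval -0.49 to 0.20). Whether Sdc2 differed from the other syndecans in its response was not tested.

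The promoter windows of the 3 syndecans whose groups did not overlap are shown with the same motifs in capitals.
Sdc1, chr12:8771146-8771395, plus strand: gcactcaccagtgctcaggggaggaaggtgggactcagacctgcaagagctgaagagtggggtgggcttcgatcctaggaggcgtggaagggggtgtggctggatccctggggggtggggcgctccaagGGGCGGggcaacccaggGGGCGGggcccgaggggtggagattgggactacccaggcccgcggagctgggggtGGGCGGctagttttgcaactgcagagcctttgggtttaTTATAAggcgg
Sdc3, chr4:130792287-130792536, plus strand: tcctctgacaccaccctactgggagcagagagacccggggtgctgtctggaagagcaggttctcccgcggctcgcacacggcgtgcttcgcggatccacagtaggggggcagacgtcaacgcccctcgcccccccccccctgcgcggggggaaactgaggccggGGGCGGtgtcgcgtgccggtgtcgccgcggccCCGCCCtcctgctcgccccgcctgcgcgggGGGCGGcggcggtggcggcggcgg
Sdc4, chr2:164443189-164443438, minus strand: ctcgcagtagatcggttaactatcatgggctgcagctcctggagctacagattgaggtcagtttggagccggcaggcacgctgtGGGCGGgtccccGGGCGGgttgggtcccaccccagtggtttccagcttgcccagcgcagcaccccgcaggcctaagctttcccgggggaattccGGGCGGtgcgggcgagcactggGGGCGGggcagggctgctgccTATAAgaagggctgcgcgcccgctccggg
The windows of Sdc1, Sdc3 and Sdc4 held 3, 3 and 4 GC boxes. A TATAA on the plus sense lay 10 bases before the RefSeq start in Sdc1, where a match on the other strand overlaps it, and 29 bases before it in Sdc4. The Sdc3 window held none and had a GC content of 76.4%, against 66.0% in Sdc1 and 68.0% in Sdc4. None of the 3 held CACGTG. The GENCODE M21 starts of Sdc1 and Sdc4 lie upstream of the RefSeq ones, so these windows reach into or lie inside the GENCODE gene.

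Per length the syndecans kept the order Sdc3, Sdc4, Sdc2 and Sdc1 in WT, at 50.3 ± 1.7, 21.2 ± 2.1, 13.8 ± 2.2 and 3.60 ± 0.71, with no overlap between neighbours. In the knockout-labelled libraries they were at 76.7 ± 15.02, 26.9 ± 1.0, 12.4 ± 0.9 and 10.4 ± 5.8. There the ranges of Sdc2 and Sdc1 overlapped, since Sdc1 reached 17.1 in GLUT1EC-/- 2. Summed, the 4 genes came to 82.7, 93.0 and 90.9 in WT and 113.2, 150.8 and 115.1 in the knockout-labelled libraries, a ratio of means of 1.42, or 1.28 without GLUT1EC-/- 2. Sdc2 made up 15.5% ± 1.6 of that sum in WT and 10.1% ± 2.0 in the other group, and Sdc1 4.03% ± 0.57 and 7.88% ± 3.06.

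**Figure D3:**
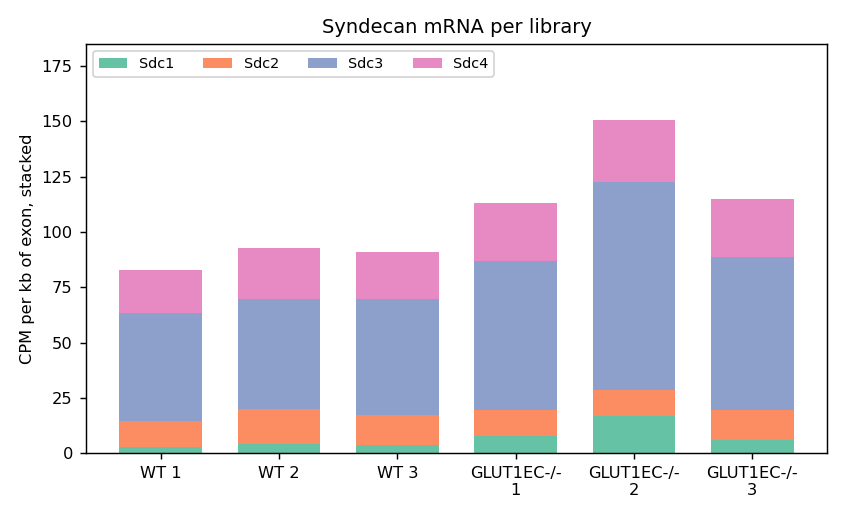
Stacked per-length levels of the 4 syndecan genes (y axis, CPM per kilobase of exon) in each of the 6 libraries (x axis). The WT bars end between 82.7 and 93.0 and the GLUT1EC-/- bars between 113.2 and 150.8, with Sdc3 the largest part in every library.

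Glypicans showed no such separation, and the difference from the syndecans was not tested. None of the 4 passed, none had groups apart, and log2 fold changes ran from -0.31 to 0.17. Gpc4, the most abundant per length, was at 12.3, 14.8 and 15.6 CPM in WT, against 15.7, 19.0 and 13.5 CPM in the knockout-labelled libraries (log2 fold change 0.17, SE 0.18). Gpc3, a glypican of growing tissues, was at 6.44, 7.80 and 7.44 CPM against 5.56, 7.23 and 4.74 CPM (log2 fold change -0.31, edgeR adjusted p = 0.57). Gpc1 and Gpc6 ranged from 3.26 to 7.42 CPM and from 9.48 to 14.0 CPM over both groups, with log2 fold changes of -0.06 and 0.03. The summed per-length level was 9.67 to 11.6 in WT and 9.75 to 12.6 in the other group, so glypican mRNA stood well under syndecan mRNA in every library.

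**Figure D4:**
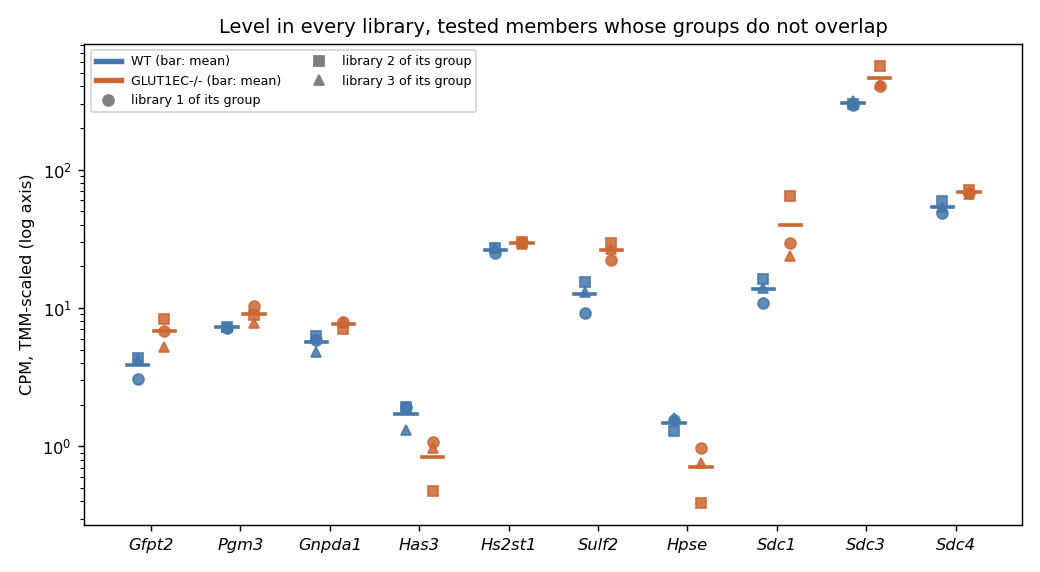
CPM in every library (y axis, log scale) of the 10 tested members whose groups do not overlap; symbols give the library number within its group and bars the group mean. 8 genes are higher in the knockout-labelled libraries and Has3 and Hpse are lower; GLUT1EC-/- 2 is the highest point in Gfpt2, Sulf2, Sdc1, Sdc3 and Sdc4.

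Markers of other cells moved between the groups as well. Of 8 fibroblast markers, 8 lay above 0 and 1, Dcn, was called, and their summed level was 89.2 to 104.8 CPM in WT and 160.7 to 376.0 CPM in the knockout-labelled libraries. Of 12 microglia markers, 10 lay above 0 and 3 were called higher, with sums of 506.8 to 601.9 and 779.4 to 1614 CPM. Of 10 astrocyte markers, 6 lay above and 4 below 0. Gfap was called higher, at 5.65 ± 0.23 CPM in WT and 44.3 ± 13.4 CPM otherwise (SD, n = 3 each), while Slc1a2 was at 8.75 ± 0.36 and 4.69 ± 1.84 CPM and was not called. The 10 summed to 143.9 to 174.8 and 202.9 to 247.4 CPM. The 8 markers of oligodendrocyte precursors, with 0 of 6 tested called and 2 above 0, summed to 18.4 to 19.1 and 25.7 to 32.4 CPM. No fibroblast, microglia or astrocyte marker was at 0 in any library, and among precursor markers Neu4 was at 0 in some. Lymphocyte markers were lower by value, with 2 of 8 tested called and sums of 18.6 to 22.2 and 5.86 to 12.3 CPM. Of 10 macrophage and monocyte markers, 5 lay above and 5 below 0. Itgal was called lower. Plac8 and Pf4 were also lower in every knockout-labelled library, while Cd163 was higher in every one, and none of these was called. The sums were 236.7 to 356 CPM in WT and 145.5 to 247 CPM in the knockout-labelled libraries, and these ranges overlapped. The part of these cells in the values of Sdc1, Sdc3, Sulf2, Hpse or Has2 was not tested. GLUT1EC-/- 2 had the lowest fibroblast, microglia, macrophage, lymphocyte, choroid plexus and erythroid sums of its group. It had the highest endothelial, pericyte, astrocyte, oligodendrocyte and precursor sums. This is 1 library, and a relation to its levels of any member was not tested.

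**Figure D5:**
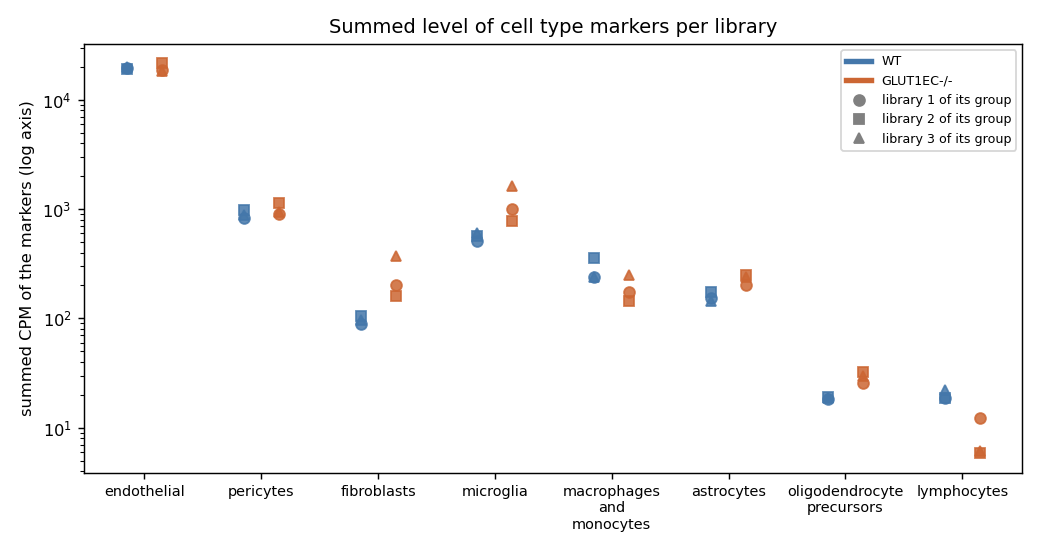
Summed CPM of 8 marker lists (y axis, log scale) in every library, WT and GLUT1EC-/- side by side. Fibroblast, microglia, astrocyte and oligodendrocyte precursor sums are higher in each knockout-labelled library than in each WT library and lymphocyte sums lower, while endothelial sums overlap. Of the tested precursor markers, only Pdgfra and Vcan lay above 0. Of the 10 astrocyte markers, 4 lay below 0, and Gja1 and Fgfr3 made up the largest parts of the sum.

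Of 102 neighbouring genes listed, 91 were tested, and of these 3 were called higher and 0 lower. By value, 48 of the 91 lay above 0 and 43 below. The called genes were Itih3 in the hyaluronan list and Col18a1 and Dcn among the core proteins. No neighbour passed without WT 1, WT 2 or WT 3, and 1 passed without GLUT1EC-/- 1, 11 without GLUT1EC-/- 2 (10 higher and 1 lower) and 9 with DESeq2. Over all genes tested, 0.863% were called higher and 0.445% lower with all libraries, 5.73% were called without GLUT1EC-/- 2 and 5.92% with DESeq2.

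Hyaluronan turnover and binding had 1 of 17 tested genes called. Itih3, a heavy chain that is transferred onto hyaluronan, was at 1.73, 2.22 and 2.39 CPM in WT, against 8.17, 7.86 and 9.61 CPM in the knockout-labelled libraries (log2 fold change 2.01, SE 0.23, edgeR adjusted p = 0.0148). All 3 were well above WT. Lyve1, a hyaluronan receptor of lymphatic endothelium and of some macrophages, was at 2.82, 3.62 and 2.78 CPM against 6.03, 8.57 and 5.71 CPM and did not pass (edgeR adjusted p = 0.08). Its groups did not overlap. Cd44, the main hyaluronan receptor of many cells including leukocytes, was at 24.5, 43.8 and 18.4 CPM against 20.0, 13.4 and 10.6 CPM (log2 fold change -0.98, edgeR adjusted p = 0.246).

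Of 22 other core proteins of the cell surface and matrix, 2 were called. Col18a1, a basement membrane collagen that carries heparan sulfate, rose to 380.1 ± 49.97 CPM from 172.5 ± 28.4 in WT (SD, n = 3 each; log2 fold change 1.14, edgeR adjusted p = 0.0259), and Dcn, a chondroitin or dermatan sulfate proteoglycan that is also one of the fibroblast markers, rose to 79.8 ± 20.3 CPM from 19.5 ± 1.2 (log2 fold change 2.03, edgeR adjusted p = 0.00997). The other heparan sulfate carriers of the basement membrane, Hspg2 (perlecan) and Agrn (agrin), had log2 fold changes of -0.12 and -0.40 and overlapped. Podxl, a sialomucin of the luminal surface, was at 2448, 2209 and 2808 CPM in WT, against 2073, 1774 and 1985 CPM in the knockout-labelled libraries. It was lower in all 3 and did not pass (log2 fold change -0.36, edgeR adjusted p = 0.322).

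The lists of O-GlcNAc, sialic acid and nucleotide sugar genes (0 of 16) and of linker and other heparan sulfate enzymes (0 of 21) had no call. In the first, Mgat5, an N-glycan branching enzyme that uses UDP-GlcNAc, was at 0.42 on the log2 scale (edgeR adjusted p = 0.406). Oga, which removes O-GlcNAc, was at 229.8, 218.7 and 200.8 CPM against 211.8, 399.8 and 186.6 CPM, with GLUT1EC-/- 2 far above the rest. In the second list, Ndst3, another N-sulfation gene, ranged over 14.1 to 17.8 CPM in WT and 12.1 to 12.7 CPM otherwise (log2 fold change -0.35, edgeR adjusted p = 0.355).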

How the data were processed

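The deposited files hold raw read counts per gene symbol, 1 file for each of the 6 libraries. The submitters' processing notes list STAR, featureCounts and GRCm38; versions, annotation and the strand setting of the counting are not given in the sources used here. The library kit kept strand, per the labels' protocols. Samples were grouped by genotype label. Each has its own animal number, and p-values measure the spread between 3 samples a group.

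All genes were fitted with edgeR 4.0.16 under R 4.3.3 (quasi-likelihood F test, genotype only, TMM, filterByExpr with a minimum count of 10 and total of 15, robust dispersion). P-values were adjusted by Benjamini-Hochberg over 14838 genes. Standard errors were taken from the log2 fold change and the root of its F statistic. CPM were divided by exon length from GENCODE M21 (GRCm38) for levels between genes, with the union of exons or, as an alternative, the longest transcript. Of 246 listed genes, 5 were found under older symbols. Exons of 6 members, Gnpnat1, Pgm3, Gnpda2, Has3, Sulf2 and Gpc1, overlap a coding gene on the opposite strand. Those of 1, Ugdh, overlap a coding gene on the same strand (Gm43552). The counts of all these members are therefore uncertain.

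The members and lists were chosen with earlier results of these data known. Named genes are all members, Slc2a1, and of each neighbouring list the called genes or, where none was called, the 2 with the smallest p; Lyve1, Cd44, Hspg2, Agrn, Podxl, Oga and Chst15 were chosen after their values were seen. Some genes that the rule names are not reported here. Alternatives were other scalings (RLE or library size alone), other tools (DESeq2 1.42.0 and limma-voom, limma 3.58.1), other filters (none, or 1 CPM or more in 3 libraries), a term for the series of animal numbers (200s or 500s), and leaving out each library. The syndecan and marker sums without GLUT1EC-/- 2 and the counts of members apart without each library were added after seeing the data. On simulated counts for the 14838 genes, edgeR recovered 94.9%, 58.6% and 9.64% of genes changed 4-fold, 2-fold and 1.5-fold with 2.97% false calls, and DESeq2 gave 13.2% false calls. The simulated dispersion depended on the level of a gene alone, and no library stood apart as GLUT1EC-/- 2 did. The rates in the real data can therefore differ. Reads came from PCR without molecular identifiers, so the floor of 3 counts covers counting error only.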

Additional observations from a re-analysis of the deposited data

How the results depend on the processing

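Over all genes, 194 calls became 879 with DESeq2, 14 with the animal number series as a term, and 0 to 862 with 1 library left out (WT 1, 2 and 3 left out gave 0, 1 and 5, and GLUT1EC-/- 1, 2 and 3 left out gave 32, 862 and 283). Members called were 0 of 35 in edgeR, 3 with DESeq2 and 0 to 4 with 1 library left out. Neighbouring genes called were 3, against 9 with DESeq2, 1 with the series as a term and 0 to 11 with 1 library left out. The causes were not tested. Of 35 members, 27 kept the sign of their fold change under all 13 alternatives. Signs turned for Slc2a1 and for 8 members, of which Has1 had the largest estimate (-0.39). Slc2a1 was at -0.02 with library size alone, -0.011 with the series as a term and -0.15 to 0.14 with 1 library left out. Gne was at -0.016 with library size alone, -0.046 with the series and -0.0495 to 0.141 with 1 library left out. Gpc6 was at -0.03 with library size alone and -0.072 to 0.19 with 1 library left out, Ugdh at 0.0048 with the series, and Has1 at 0.0598 with limma-voom and 0.33 with the series. With 1 library left out, the ranges were -0.018 to 0.16 for Gnpnat1, -0.17 to 0.032 for Uap1, -0.056 to 0.24 for Amdhd2 and -0.45 to 0.17 for Gpc1. With lengths of the longest transcript, the order per length changed among the salvage enzymes, between Ndst1 and Ext2, and between Ext1 and Hs2st1. In the knockout-labelled libraries the order also changed between Ndst2 and Hs6st1, between Gpc3 and Gpc6, and between Sdc2 and Sdc1. No paired analysis was possible because replicates were numbered in accession order, and the animal numbers in the labels do not recur between genotypes. In the simulation most 1.5-fold changes were not called. A member with no call can still differ to that extent. For 13 members the 95% interval, taken for each gene alone with all libraries, lay within a 1.5-fold change. Gnpnat1 and Ugdh are among them, and their counts are uncertain because their exons overlap those of other genes.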

Other observations

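Chondroitin and dermatan sulfate enzymes, which build the other sulfated chains of the vessel surface, had 0 of 15 tested genes called. Chpf2, a chondroitin polymerising factor, was at 38.8, 42.2 and 37.2 CPM in WT, against 52.4, 66.0 and 51.3 CPM in the knockout-labelled libraries, with groups apart (log2 fold change 0.52, SE 0.14, edgeR adjusted p = 0.145). Csgalnact1, which starts the chondroitin chain, was at 40.9, 45.8 and 46.0 CPM against 37.3, 25.8 and 34.1 CPM, below WT in all 3 libraries (log2 fold change -0.45, edgeR adjusted p = 0.254). The median log2 fold change of the 15 was -0.03.

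As in Sdc1, GLUT1EC-/- 2 stood far above every other library in some other genes, with Ndst2 at 71.3 CPM against 31.3 to 35.2, Chst15, a chondroitin sulfotransferase gene, at 52.1 against 19.1 to 24.5, and Oga at 399.8 against 186.6 to 229.8 CPM. These genes were picked after their values were seen.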
